A study of Mus musculus with 12 samples.

Results

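The shear stress response of control Ocy454 cells was examined in 6 of the 12 libraries of the series, namely the 3 titled as control cells with fluid flow shear stress (FFSS) and the 3 titled as control cells kept static, which were fitted alone. Ocy454 is a mouse line of osteocytes derived from long bone. The control cells carry the genotype label of original cells, and both conditions are labelled with a time point of 3 h. The other 6 libraries come from cells edited in 2 histone deacetylase genes and were not used here except in 1 alternative fit. Per the study's methods, the line is a sub-clone grown from a single cell and carries a temperature-sensitive T antigen, and flow was produced by rotating whole dishes on a mixer, so that the stress on each cell was not set individually and 1 clone stands for osteocytes. The labels do not say whether replicates came from separate cultures, so that p-values measure only the spread between these samples, which may be technical.

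Osteocytes are former osteoblasts that lie within the bone matrix, and they are the cells thought to sense load through the movement of fluid around them. They respond with secreted regulators of bone turnover, among them sclerostin (Sost), which inhibits WNT signalling in osteoblasts, and RANKL (Tnfsf11), which drives osteoclast formation. Genes induced by the hypoxia-inducible factors (HIF), which are stabilised when oxygen is low and raise glucose uptake, glycolysis and the HIF prolyl hydroxylases, were examined beside genes of bone, matrix, cytoskeleton and inflammation.

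The 6 libraries held between 18.0 and 19.0 M reads assigned to genes, so that 3 counts corresponded to at most 0.167 CPM (a read count relative to the TMM-adjusted total). The FFSS libraries did not form a tight group. Between their counts, chi-square divided by its degrees of freedom was 63.8 for replicates 1 and 2 and 58.0 for replicates 1 and 3, against 6.45 for replicates 2 and 3 and between 2.32 and 3.76 among the static libraries. FFSS replicate 1 lay nearer to the static libraries, and the results for gene groups are therefore given with and without it. It was left out because it responded less. Calls and p-values without it therefore describe replicates 2 and 3 against static and are not independent evidence of a response. The share of reads outside annotated genes moved with this difference. It was 4.27, 4.34 and 4.25% in static libraries 1 to 3 and 4.90, 7.75 and 8.53% in FFSS libraries 1 to 3. The difference of means was 2.77 percentage points, and the exact two-sided permutation p of 0.1 was the smallest that 3 against 3 allows. A fit that holds this share as a covariate was also run. Its values are given beside the gene lists whose median changed sign or that lost a called member in it. In that fit 160 genes (0.990%) were called and 3753 (23.2%) were at an unadjusted p under 0.05. No static library had a raised share, so that the share and FFSS cannot be told apart. The share was close to static in FFSS replicate 1 and raised in replicates 2 and 3. The FFSS term of that fit therefore rests mainly on replicate 1 against static. Directions kept or lost in it are no separate check on the lists.

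**Figure D1:**
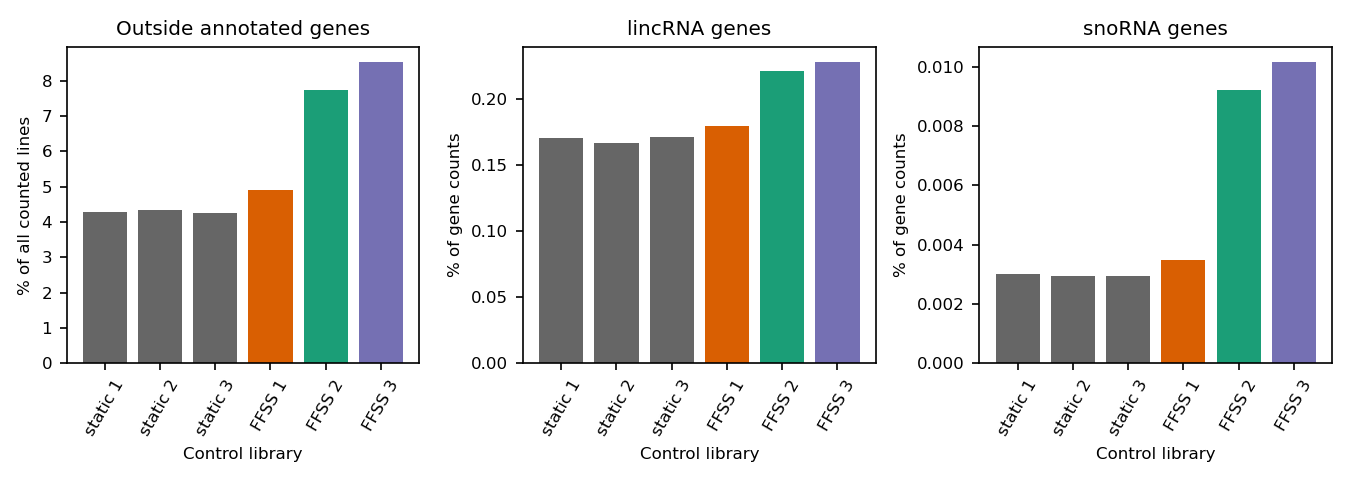
Share of all counted lines outside annotated genes, and shares of gene counts from lincRNA and snoRNA genes, in % for each of the 6 control libraries. Each bar is 1 library. FFSS replicates 2 and 3 were highest on all 3 measures, and FFSS replicate 1 lay just above the static libraries, at 4.90% outside genes.

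The labelled cell type was checked against marker genes. The 5 osteoblast markers summed to between 4226 and 5074 RPKM (CPM per kilobase of exon) in static libraries and to 4408, 1256 and 1359 RPKM in FFSS libraries 1 to 3. Of 6 osteocyte markers, 4 had a mean of at least 1 RPKM, and all 6 summed to between 30.7 and 43.2 RPKM in static cells and to 71.8, 36.6 and 31.1 RPKM in FFSS libraries 1 to 3. Fgf23, which encodes a phosphate-regulating hormone of osteocytes, had too few counts to be tested, and Mepe was at most 0.221 CPM. The 5 endothelial markers summed to at most 0.244 RPKM in any library. Macrophage and osteoclast markers summed to between 73.7 and 77.8 RPKM in static libraries and to 72.9, 48.9 and 50.3 RPKM in FFSS libraries 1 to 3, and fibroblast markers to between 30.1 and 35.8 RPKM and to 29.5, 14.4 and 15.7 RPKM. A mean of at least 1 RPKM was reached by 2 of the 5 macrophage and osteoclast markers, Ctsk and Cd68. Ptprc, Csf1r and Acp5 were each at most 0.236 RPKM in any library. Chondrocyte markers summed to between 19.7 and 24.7 RPKM and to 19.3, 13.3 and 15.7 RPKM, and skeletal muscle markers to between 1.85 and 2.40 RPKM and to 2.00, 1.29 and 1.10 RPKM. Adipocyte markers summed to between 3.32 and 4.07 RPKM and to 3.447, 4.001 and 2.780 RPKM. Only Sox9 of the chondrocyte, Des of the skeletal muscle and Fabp4 of the adipocyte markers reached a mean of 1 RPKM. Apart from the osteocyte, endothelial and adipocyte markers, these sums were lowest in FFSS replicates 2 and 3, and their part in the results was not tested. In bulk RNA, fewer cells of a type cannot be told apart from less RNA per cell.

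Of 16166 genes tested, 438 (2.71%) were called between FFSS and static cells (edgeR, requiring a Benjamini-Hochberg adjusted p under 0.05 together with a change beyond 2-fold), of which 280 (1.73%) were higher and 158 (0.977%) lower under FFSS. Without FFSS replicate 1, 1815 of 16492 genes (11.0%) were called, 1122 higher (6.80%) and 693 lower (4.20%). Scaling by library totals alone shifted the median log2 fold change of all genes to 0.14 from 0.017 and gave 74.8% higher among the genes called, against 63.9%. The balance turned to mostly lower in other settings, with 38.1% higher with the share of reads outside genes as a covariate, 33.3% at an adjusted p under 0.01, and at most 40.7% when 1 static library, FFSS replicate 2 or FFSS replicate 3 was left out. The unadjusted p was under 0.05 in 5514 genes (34.1%), and the adjusted p alone in 2373 genes (14.7%), 1164 higher (7.20%) and 1209 lower (7.48%). The 2 groups of 3 did not overlap in 6376 genes (39.4%), with FFSS above static in 2982 (18.4%) and below it in 3394 (21.0%). Among the genes called in all 6 libraries, 277 of the 280 and 157 of the 158 were called again. A change in each FFSS library was computed as its log2 CPM minus the mean of the static libraries. Over all genes tested its median was 0.005, 0.018 and 0.013 in replicates 1 to 3. For the 280 genes called higher the median change was 0.87 in replicate 1, 1.54 in replicate 2 and 1.64 in replicate 3, and for the 158 called lower it was −0.97, −1.66 and −1.57. A level more than 2-fold above the static mean was seen in 311 genes (1.92%) in replicate 1, 1147 (7.10%) in replicate 2 and 1345 (8.32%) in replicate 3. It was seen in 114 genes (0.705%) in all 3, and in 843 (5.21%) in replicates 2 and 3, of which 729 (4.51%) did not reach it in replicate 1. A level more than 2-fold below it was seen in 258 (1.60%), 828 (5.12%) and 716 genes (4.43%) in replicates 1 to 3. It was seen in 71 genes (0.439%) in all 3, and in 526 (3.25%) in replicates 2 and 3, of which 455 (2.81%) did not reach it in replicate 1. Replicate 1 thus moved fewer genes past 2-fold than either other library in both directions. With all 6 libraries, DESeq2 called 560 and limma voom with sample weights 1614 of the 16166 genes. Counts of list members by these 2 methods stand against these totals. Sample weights count variable libraries less, so the voom calls are not separate from those without replicate 1.

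**Figure D2:**
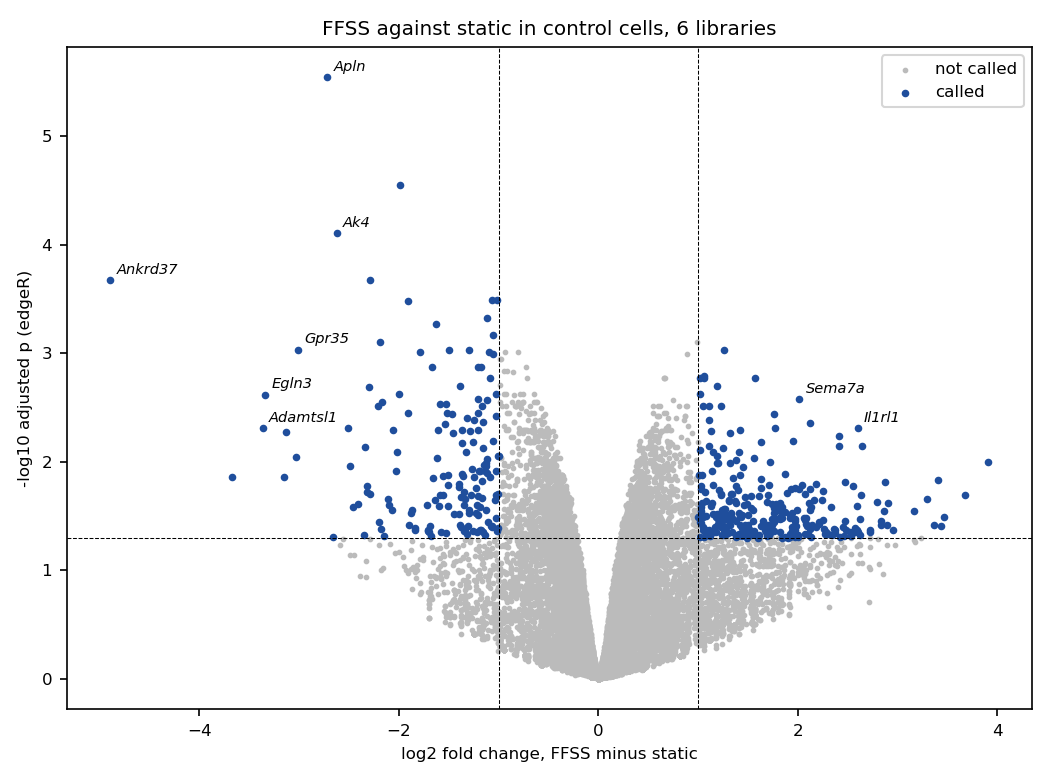
Change of each of the 16166 genes tested, with the log2 fold change of FFSS against static on the horizontal axis and −log10 of the edgeR adjusted p on the vertical axis. Blue points are the 438 genes called, dashed lines mark the 2-fold and 0.05 limits, and Apln has the lowest adjusted p, 2.86e-06.

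For the genes called without replicate 1 and tested in both fits, the median ratio of the change in replicate 1 to the mean change in replicates 2 and 3 was 25.9% for the 1096 called higher and 27.3% for the 691 called lower. These genes were chosen on replicates 2 and 3, and all changes are taken from the same static mean, so that the ratio is a description with no test. Gene groups differed widely in this ratio, as the medians of the 30 gene lists by library show.

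**Figure D3:**
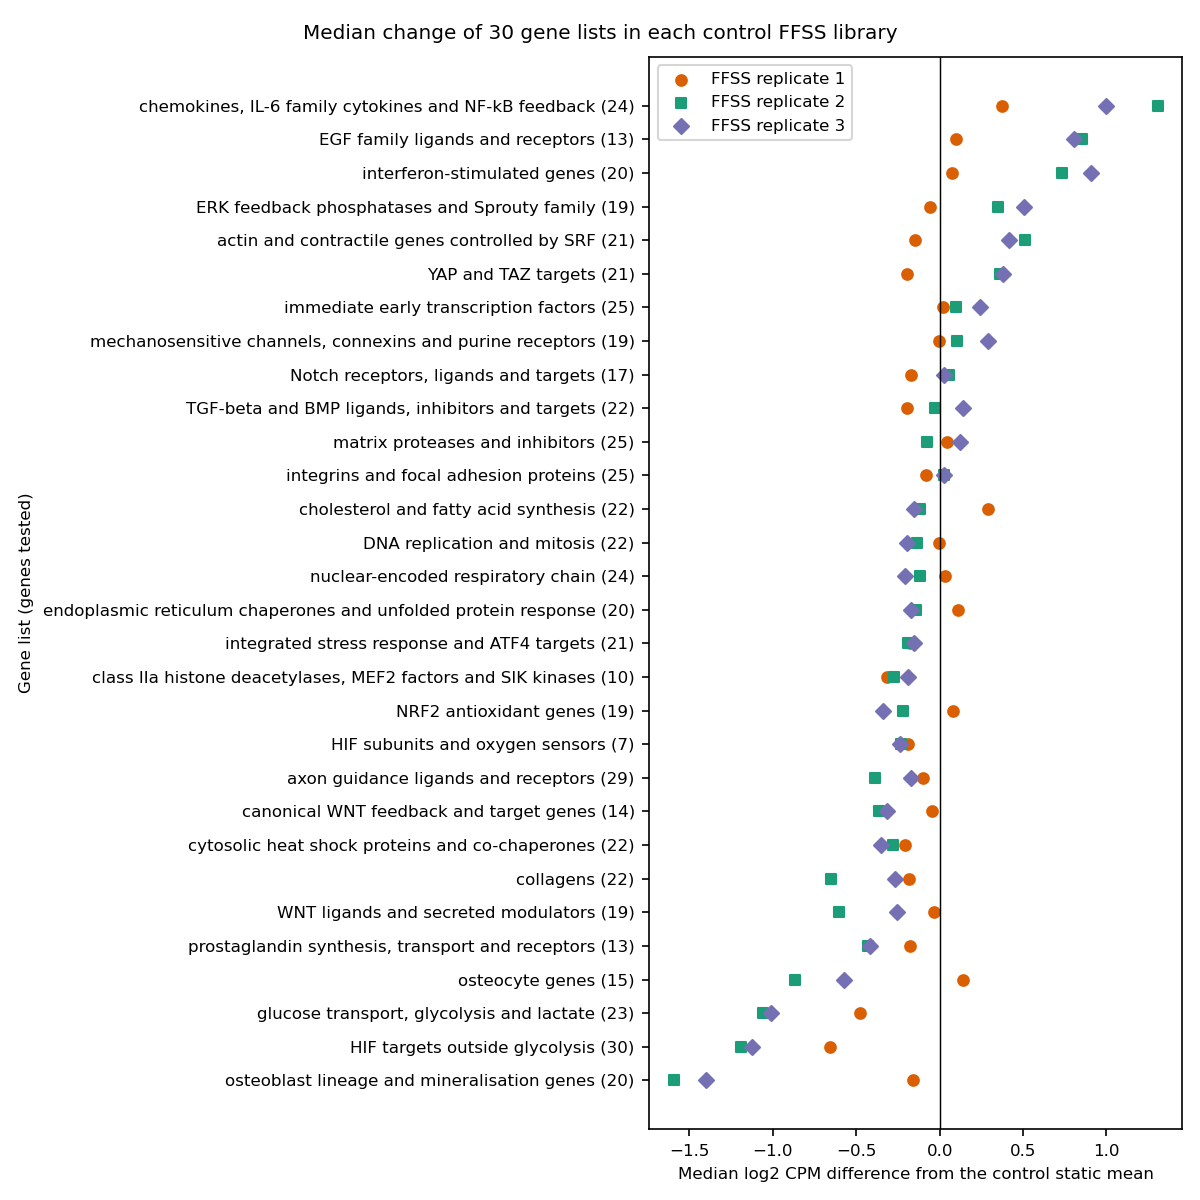
Median log2 CPM difference from the static mean for 30 gene lists (number of genes tested in parentheses), with 1 point for each FFSS library and lists ordered by their median without FFSS replicate 1. HIF targets were at −0.66, −1.19 and −1.12 in FFSS replicates 1 to 3, whereas osteoblast genes were at −0.16, −1.59 and −1.40.

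Part of the HIF targets and of the genes of glucose use were called lower under FFSS. Of 30 HIF targets outside glycolysis, 13 were called lower (43.3%, against 0.977% of all genes) and 0 higher, with a median log2 fold change of −0.91 beside 0.017 for all genes tested. Without FFSS replicate 1, 17 were called lower (against 4.20% of all genes) and 0 higher. All 30 were below the static mean in replicate 1, 25 in replicate 2 and 26 in replicate 3. Among those called without replicate 1, its median change was 56.1% of that in replicates 2 and 3. Of 23 genes of glucose transport, glycolysis and lactate handling, 4 were called lower (17.4%, against 0.977% of all genes) and 0 higher, and 12 were lower (against 4.20%) and 0 higher without replicate 1, with medians of −0.48, −1.06 and −1.01 in FFSS replicates 1 to 3. The fit with the share of reads outside genes as a covariate gave the 2 lists medians of −0.62 and −0.42. Its FFSS term rests mainly on replicate 1. In it 8 of the 13 and 3 of the 4 members called kept the call.

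Egln3 (ENSMUSG00000035105, mm9 chromosome 12, 55279968 to 55304847, minus strand), the HIF prolyl hydroxylase that marks HIF for destruction and is itself a HIF target, was at 398, 375 and 368 CPM in static libraries and at 54.1, 29.7 and 29.1 CPM in FFSS libraries. Its log2 fold change was −3.34 (SE 0.26, edgeR adjusted p = 0.0024). The groups lay far apart, and replicate 1 was the highest of the FFSS libraries. Egln1, the main hydroxylase in most cells, was at 691, 722 and 714 CPM in static and 430.1, 259 and 281 CPM in FFSS libraries. Its fold change was −1.13 (SE 0.18, edgeR adjusted p = 0.0122). Both hydroxylases are counted among the targets. Of 7 HIF subunits and other oxygen sensors tested, none was called in all 6 libraries by edgeR (4 were at an unadjusted p under 0.05, against 34.1% of all genes). With 6 libraries DESeq2 called 0 of them and limma voom with sample weights 1. By edgeR only Epas1, which encodes HIF-2α, was called without replicate 1. Hif1a was at 289, 277 and 271 CPM in static and 244, 243 and 221 CPM in FFSS libraries (log2 fold change −0.24, edgeR adjusted p = 0.0525), and Hif3a had too few counts. Epas1 was at 102, 88.2 and 93.1 CPM in static and at 114, 29.7 and 40.3 CPM in FFSS libraries, so that replicate 1 was above all static libraries and the other two below them.

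Apln (ENSMUSG00000037010, mm9 chromosome X, 45378323 to 45388030, minus strand), which encodes the peptide hormone apelin, changed by a similar amount in each library. It was at 164, 168 and 165 CPM in static and 23.7, 26.8 and 24.8 CPM in FFSS libraries, with changes of −2.80, −2.62 and −2.73 and a fitted log2 value of −2.72 (SE 0.08, edgeR adjusted p = 2.86e-06). Neither group spread by more than a few CPM. Ak4, a mitochondrial adenylate kinase that is not in the HIF list, was nearly as even. It was at 80.0, 79.7 and 67.3 CPM in static and 14.2, 11.7 and 10.9 CPM in FFSS libraries (log2 fold change −2.62, edgeR adjusted p = 7.84e-05). Slc2a1, the glucose transporter GLUT1, was at 463, 479 and 436 CPM and 119, 106 and 121 CPM (log2 fold change −1.99, SE 0.08, edgeR adjusted p = 2.82e-05). For these 3 genes replicate 1 was close to replicates 2 and 3. Kdm3a, a histone demethylase, also changed evenly, with values of −1.05, −1.10 and −1.04.

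Ankrd37, an ankyrin-repeat gene known as a HIF target, had the lowest log2 fold change of the named genes, −4.89 (SE 0.26, edgeR adjusted p = 0.000213). It was at 36.4, 31.8 and 36.8 CPM in static and 1.83, 1.03 and 0.674 CPM in FFSS libraries. It overlaps Ufsp2, which had 275% as many counts, and because the counting did not use strand, reads from the overlap cannot be assigned to either gene. Adm, which encodes the vasodilator peptide adrenomedullin, was at 3.66, 2.84 and 3.75 CPM in static and 0.378, 0.667 and 0.104 CPM in FFSS libraries (log2 fold change −3.13, edgeR adjusted p = 0.00528), and the last value lies under the floor of 3 counts. The remaining targets called were Ddit4, an inhibitor of mTOR signalling, Bnip3, which acts in mitophagy, the collagen prolyl hydroxylases P4ha1 and P4ha2, Ndrg1, and the repressors Bhlhe40 and Mxi1. Their log2 fold changes ran from −1.67 for Ddit4 to −1.17 for Mxi1. By edgeR, Selenbp1, Car9, Higd1a and Fam162a were called without replicate 1 but not with 6 libraries. Voom with sample weights, which counts variable libraries less, called them with 6 libraries.

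Along glycolysis, Pfkl, the liver-type phosphofructokinase, was at 532, 568 and 528 CPM in static and 207, 153 and 168 CPM in FFSS libraries (log2 fold change −1.63, edgeR adjusted p = 0.00054). The lactate exporter Slc16a3 was at 69.2, 70.8 and 63.0 CPM and 22.7, 14.0 and 14.0 CPM (log2 fold change −2.00, edgeR adjusted p = 0.00238), and it overlaps Csnk1d, which had 583.55% as many counts. Pdk1, which keeps pyruvate out of mitochondria, was at 232, 242 and 236 CPM and 125, 65.2 and 79.6 CPM (log2 fold change −1.39, edgeR adjusted p = 0.0162). The groups did not overlap for any of these 3 genes. In all, 15 of the 23 list members passed the edgeR adjusted p threshold lower under FFSS and 1 higher. The enzymes Aldoa, Tpi1, Pgk1, Pgam1, Eno1, Gpi1 and Ldha passed the adjusted p threshold but fell short of 2-fold with 6 libraries, and were called without replicate 1, where their log2 fold changes ran from −1.28 for Pgk1 to −1.08 for Pgam1. Aldoc differed from them: it was at 62.1, 54.7 and 59.3 CPM in static libraries and 57.5, 12.1 and 13.2 CPM in FFSS libraries, so that FFSS replicate 1 lay within the static range.

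To show what the promoters of these genes share, the 250 bases before each RefSeq start (GRCm38.p6 table) were searched on both strands for the core of the HIF response element, ACGTG, for the 22 of 30 HIF targets that the table held. It was present in 15 (68.2%), in 11 of 22 glycolysis genes, and in 24.3% of the 10160 genes tested that had a promoter in the table. Among members called without replicate 1, it was present in 11 of 15 HIF targets and 6 of 12 glycolysis genes. These shares were near those of the whole lists, so the letters did not mark the genes called. The difference from all genes was not tested. The following stretches, 5′ to 3′ on the strand of the gene with the matching letters (ACGTG, or CACGT where the match is on the other strand) in capitals, are from genes called lower in all 6 libraries. They lie at chr8:45999851-45999881 (minus strand) for Ankrd37, chr12:54204074-54204124 (minus strand) for Egln3, chr10:59951928-59951982 (minus strand) for Ddit4, chr10:59323255-59323295 (plus strand) for P4ha1 and chr4:119108684-119108738 (plus strand) for Slc2a1, with the first capital 6, 229, 187, 16 and 36 bases before the start. A match describes the letters only and is not a binding site.
Ankrd37: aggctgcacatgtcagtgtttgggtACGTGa
Egln3: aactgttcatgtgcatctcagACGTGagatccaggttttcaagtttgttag
Ddit4: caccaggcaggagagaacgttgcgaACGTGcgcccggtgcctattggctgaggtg
P4ha1: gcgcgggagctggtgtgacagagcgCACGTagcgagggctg
Slc2a1: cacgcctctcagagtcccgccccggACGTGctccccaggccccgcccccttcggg

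Genes called, separated between groups and with an average log2 CPM above 1 were ranked by log2 fold change. The 10 lowest also held genes outside the HIF list. Adamtsl1, a secreted matrix protein related to the ADAMTS proteases, was at 58.1, 51.9 and 49.4 CPM in static and 8.52, 3.34 and 3.63 CPM in FFSS libraries (log2 fold change −3.37, edgeR adjusted p = 0.00486). Gpr35, a G-protein-coupled receptor, was at 95.9, 84.6 and 87.7 CPM and 15.1, 8.21 and 10.005 CPM (log2 fold change −3.01, edgeR adjusted p = 0.000923). Nos2, the inducible nitric oxide synthase, was at 4.33, 2.78 and 3.37 CPM and 0.809, 0.359 and 0.104 CPM (log2 fold change −3.03, edgeR adjusted p = 0.00902), with the value of replicate 3 under the floor of 3 counts. In all 3 genes replicate 1 was the highest FFSS library and still lay well below the static libraries. The others were Ak4, described above, Cd28, a co-stimulatory receptor known from T cells, Ppp1r3b, which targets a phosphatase to glycogen, and Baiap2l2. Their log2 fold changes were −2.62, −2.51, −2.41 and −2.35. Baiap2l2 was at 53.4, 46.7 and 54.5 CPM in static and 20.1, 4.67 and 5.70 CPM in FFSS libraries, and its adjusted p of 0.0472 by edgeR was close to the threshold.

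The 10 genes with the highest log2 fold changes, chosen in the same way and with the same limit on average level, included the chemokine genes Ccl2 and Ccl7. Both are described with their list. Il1rl1 (ENSMUSG00000026069, mm9 chromosome 1, 40486415 to 40522260, plus strand), the receptor of IL-33, was at 3.55, 5.07 and 4.91 CPM in static and 17.0, 36.4 and 28.7 CPM in FFSS libraries (log2 fold change 2.60, SE 0.30, edgeR adjusted p = 0.00486). Il18rap, a subunit of the IL-18 receptor, was at 0.500, 0.600 and 0.938 CPM and 2.37, 4.98 and 3.58 CPM (log2 fold change 2.41, edgeR adjusted p = 0.00722). Both were low in static cells, and replicate 1 was the lowest FFSS library while still above all static libraries. Sema7a (ENSMUSG00000038264, mm9 chromosome 9, 57787920 to 57810671, plus strand), a membrane-anchored semaphorin, was at 10.9, 13.0 and 14.6 CPM and 39.0, 64.8 and 51.9 CPM (log2 fold change 2.01, SE 0.20, edgeR adjusted p = 0.00265). Klhdc8a, a kelch-domain gene, was at 20.8, 24.7 and 22.6 CPM and 64.9, 115 and 117 CPM (log2 fold change 2.12, edgeR adjusted p = 0.00435). The kinase gene Alpk2 and the zinc-sensing receptor gene Gpr39 had log2 fold changes of 2.41 and 1.95. Gpr39 overlaps Lypd1, which had 27.8% as many counts. Snx22 and Mir17hg, the host transcript of a microRNA cluster, had log2 fold changes of 2.34 and 1.96, and changes in replicate 1 of 0.51 and 0.52. Snx22 overlaps the highly expressed Ppib, with 8131% as many counts, so that its value is uncertain. All 20 of these highest and lowest genes were also called without FFSS replicate 1.

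**Figure D4:**
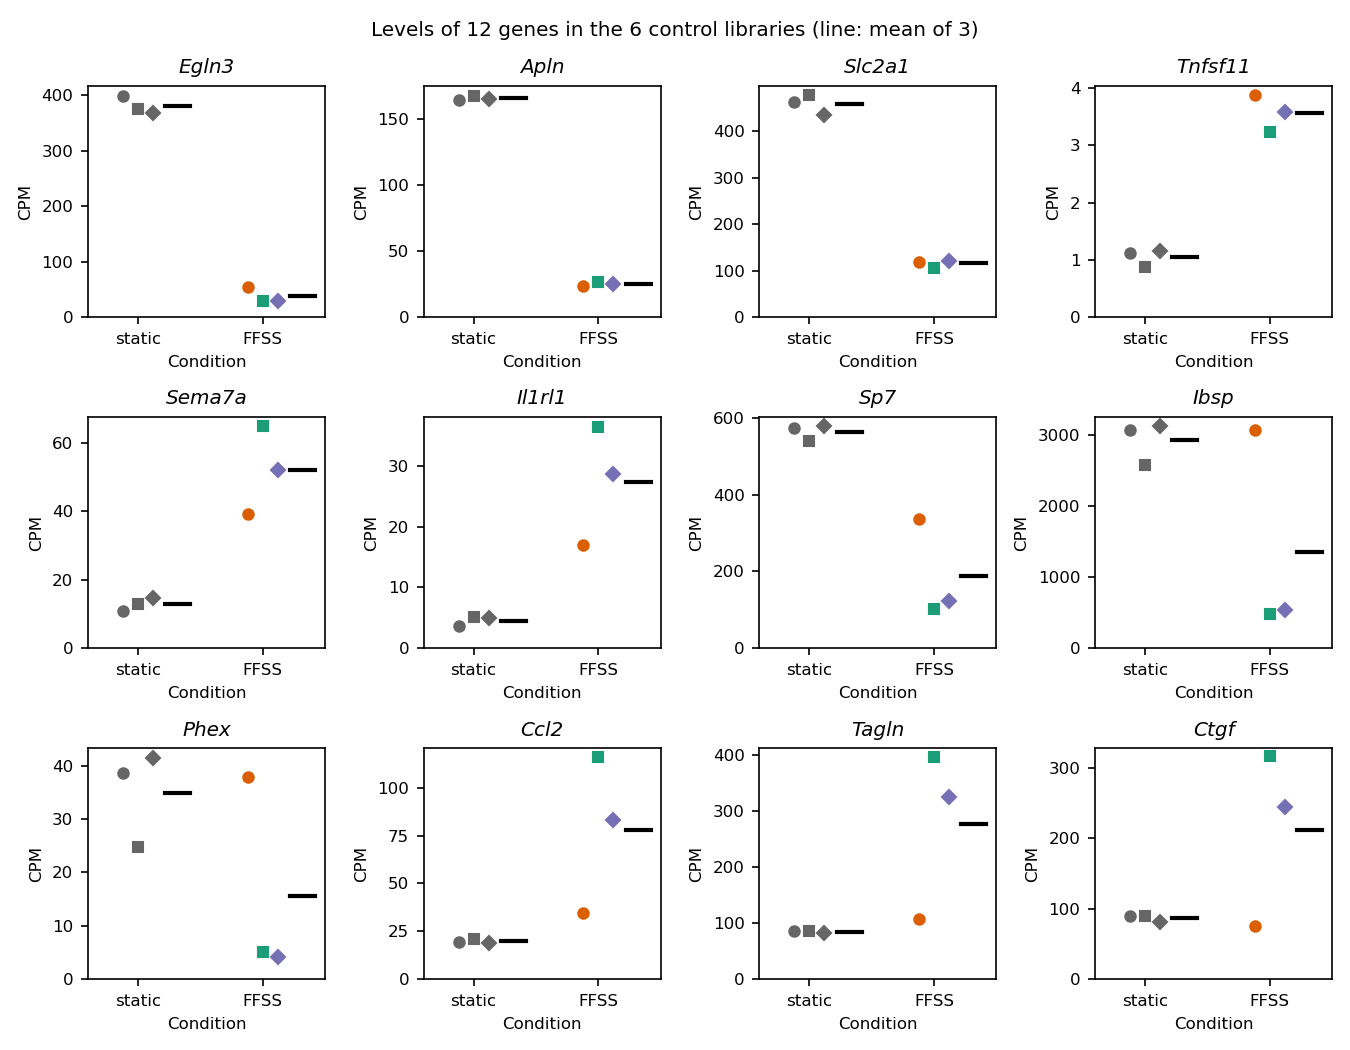
CPM of 12 genes in the 3 static (grey) and 3 FFSS (coloured) control libraries, with circles, squares and diamonds for replicates 1, 2 and 3 and a short line at each group's mean. In Apln and Slc2a1 the 3 FFSS libraries lie together, whereas in Ibsp, Phex and Ctgf FFSS replicate 1 lies at or near the static libraries.

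The list of chemokines, cytokines of the IL-6 family and NF-κB feedback genes had 7 of 24 tested members called higher (29.2%, against 1.73% of all genes) and 0 lower. Without replicate 1, 14 were called higher (against 6.80% of all genes) and 0 lower. Its medians were 0.38, 1.31 and 1.00 in FFSS replicates 1 to 3. Ccl2, which attracts monocytes, was at 19.5, 20.7 and 18.9 CPM in static and 34.6, 116 and 83.2 CPM in FFSS libraries (log2 fold change 1.98, SE 0.44, edgeR adjusted p = 0.0387). Its neighbour Ccl7 was at 3.83, 3.55 and 3.37 CPM and 5.61, 21.5 and 14.3 CPM (log2 fold change 1.95, edgeR adjusted p = 0.0438). In both genes replicate 1 lay above the static libraries but nearer to them than to replicate 2. Clcf1 and Il11, cytokines that signal through gp130, had changes of 0.64, 1.76 and 2.21 and 1.02, 1.95 and 1.51 in FFSS replicates 1 to 3. Csf1, the growth factor that macrophages and osteoclast precursors need, was the most abundant of those that edgeR called without replicate 1 but not with 6 libraries, at 273, 274 and 284 CPM in static and 358, 1002 and 881 CPM in FFSS libraries. Its log2 fold change was 1.43 with replicate 1 (edgeR adjusted p = 0.0561) and 1.76 without it (edgeR adjusted p = 4.94e-21). Ccl20, also called, was at 0.0555, 0.109 and 0.0552 CPM in static libraries, under the floor of 3 counts, and at 0.378, 1.33 and 0.622 CPM in FFSS libraries. Nfkbie, an inhibitor of NF-κB, was called with a log2 fold change of 1.07. The members not tested for low counts were Ctf1, Cxcl2 and Cxcl14. With the share of reads outside genes as a covariate, the median of the list was 0.27 in place of 1.08, and 1 member was called.

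In the EGF family, 2 of 13 tested ligands and receptors were called higher (against 1.73% of all genes) and 0 lower, and 3 higher and 1 lower without replicate 1 (against 6.80% of all genes higher and 4.20% lower). The median was −0.02 with the share of reads outside genes as a covariate, in place of 0.72, and edgeR then called none (3 were at an unadjusted p under 0.05, against 23.2% of all genes). Hbegf, which encodes a membrane-bound ligand of the EGF receptor, was at 7.22, 7.64 and 6.95 CPM in static and 11.9, 36.7 and 25.1 CPM in FFSS libraries (log2 fold change 1.76, edgeR adjusted p = 0.0356). Ereg, epiregulin, was at 0.500, 0.273 and 0.386 CPM and 0.593, 2.46 and 2.23 CPM (log2 fold change 2.18, edgeR adjusted p = 0.0397). Another ligand of the same receptor, Tgfa, went the other way, at 94.2, 84.0 and 85.6 CPM and 46.6, 14.4 and 16.8 CPM (log2 fold change −2.50 without replicate 1, edgeR adjusted p = 1.91e-20, and 0.0578 with it). Of 19 feedback genes of the ERK pathway, which lies downstream of these receptors, Dusp6 and Etv4 were called higher with log2 fold changes of 1.21 and 1.25, and Dusp5 joined them without replicate 1 (2 and 3 of 19, against 1.73% and 6.80% of all genes higher). None was called lower in either fit. With the covariate neither Dusp6 nor Etv4 was called, Dusp8 and Spred3 were called lower, and the median was −0.05 in place of 0.39. Of 25 immediate early transcription factors, Fosb was called higher (log2 fold change 1.32, edgeR adjusted p = 0.0054) and Klf4 lower (−1.16, edgeR adjusted p = 0.0439). The flow-responsive factor Klf2 was at 77.4, 80.3 and 84.4 CPM in static and 58.9, 26.7 and 27.7 CPM in FFSS libraries and was called lower without replicate 1 (log2 fold change −1.57). In all, 1 factor was higher and 1 lower with 6 libraries (against 1.73% and 0.977% of all genes), and 2 higher and 2 lower without replicate 1 (against 6.80% and 4.20%). Egr1 and Fos, which respond within minutes to many stimuli, had log2 fold changes of 0.13 and 0.45 at this time point and were not called in either fit. With the covariate edgeR called none of the 25 factors (12 were at an unadjusted p under 0.05, against 23.2% of all genes), and their median was −0.07 in place of 0.18.

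Bone genes divided by library. Of 20 osteoblast lineage and mineralisation genes, none was called in all 6 libraries by edgeR. An unadjusted edgeR p under 0.05 was reached by 8, against 34.1% of all genes. DESeq2 called 3 (against 560 of 16166 genes) and limma voom with sample weights 13 (against 1614 of 16166). Without replicate 1, edgeR called 14 lower and 0 higher (against 4.20% of all genes lower). The medians were −0.16, −1.59 and −1.40 in FFSS replicates 1 to 3, and for the 14 genes the change in replicate 1 was a median of 11.6% of that in replicates 2 and 3. Sp7, osterix, the transcription factor needed for osteoblast formation, was at 574.25, 539 and 578.78 CPM in static and 338, 103 and 122 CPM in FFSS libraries. Its log2 fold change was −1.59 with replicate 1 (edgeR adjusted p = 0.0772) and −2.34 without it (edgeR adjusted p = 1.46e-20). The second p-value depends on leaving out the library that responded less, so no conclusion is drawn from it. Ibsp, bone sialoprotein, was at 3069, 2585 and 3123 CPM in static and 3065, 481 and 533 CPM in FFSS libraries, so that replicate 1 was within the static range and the others were far below it. Col1a1, the main collagen of bone, was at 19193, 15615 and 19099 CPM and 15659, 5555 and 5732 CPM, and Alpl, the phosphatase that allows mineralisation, at 1782, 1605 and 1752 CPM and 1572, 532 and 703 CPM. Other members called without replicate 1 included Phospho1, Dlx3, Mef2c, Smpd3, Col1a2, Sparc, Dlx5, Bglap and Bglap2, with log2 fold changes there from −2.64 for Dlx3 to −1.10 for Bglap. The osteocalcin genes Bglap and Bglap2 are near-identical copies whose reads may be lost or split, and they were above the static mean in replicate 1, with changes of 0.55, −1.21 and −0.94 for Bglap. Phospho1 overlaps Zfp652, which had 179.9% as many counts. With the share of reads outside genes as a covariate, the median of the 20 genes was 0.03 in place of −0.87, so the direction of the list was not kept in that fit.

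**Figure D5:**
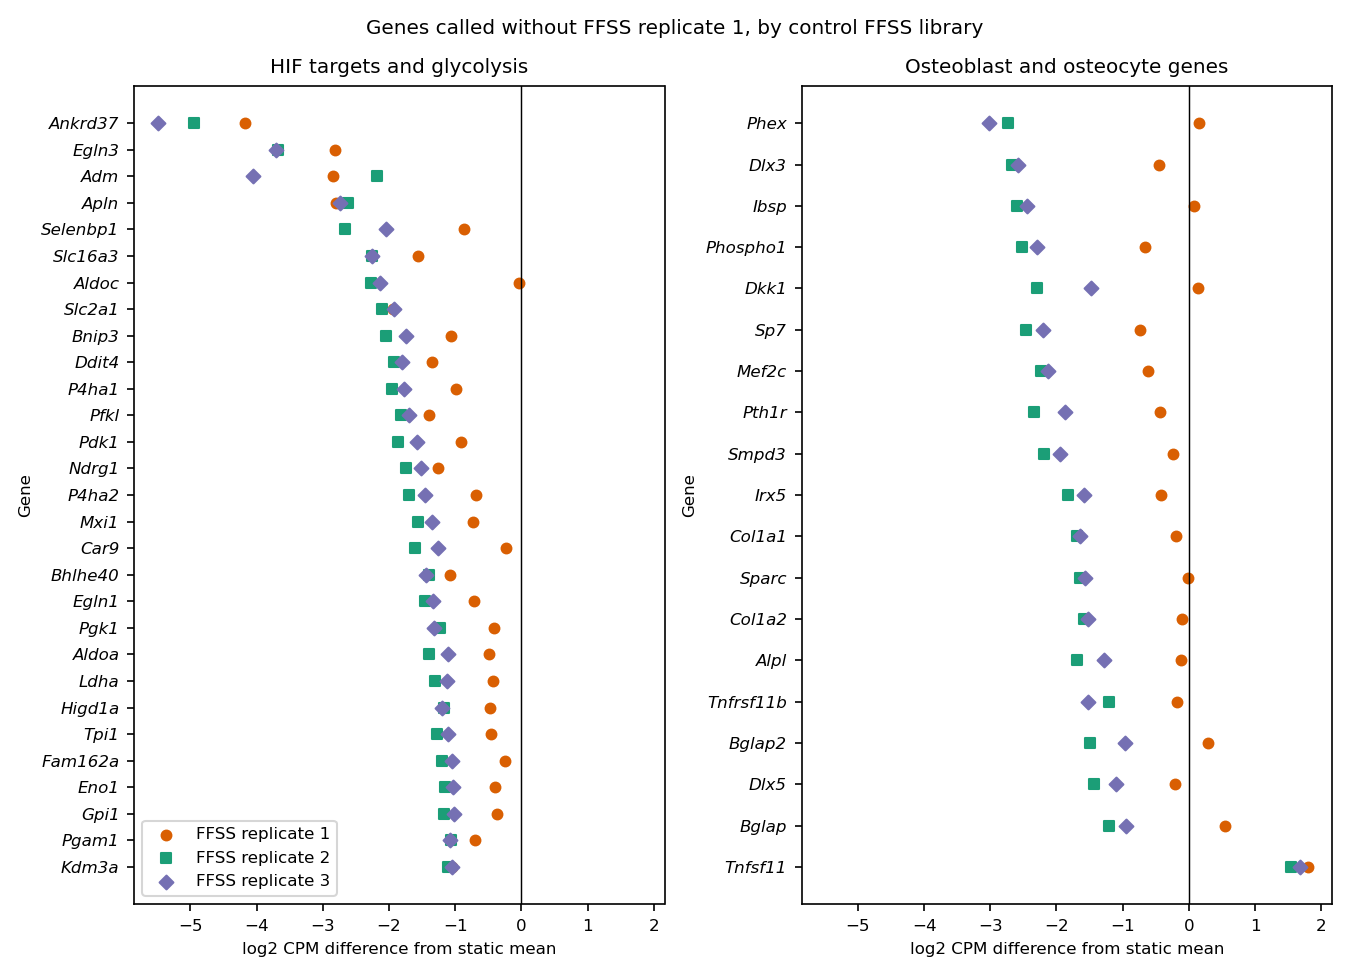
Log2 CPM difference from the static mean in each FFSS library for members named in the text and called without FFSS replicate 1, with HIF targets and glycolysis on the left and osteoblast and osteocyte genes on the right. Points are libraries. On the left replicate 1 is on the same side of 0 as the others in each gene, with Aldoc closest to 0, whereas on the right most replicate 1 points lie within 1 unit of 0.

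Osteocyte genes were mixed. Of 15 tested, only Tnfsf11 was called by edgeR with all 6 libraries (against 1.73% of all genes higher), and without replicate 1 it remained higher while Pth1r, Phex, Irx5, Dkk1 and Tnfrsf11b were called lower (against 4.20% of all genes). The median was 0.36 with the share of reads outside genes as a covariate, in place of −0.23, and Tnfsf11 and Dmp1 were called higher, so the direction of the list was not kept. Tnfsf11 (ENSMUSG00000022015, mm9 chromosome 14, 78677252 to 78707850, minus strand), RANKL, was low, at 1.11, 0.873 and 1.16 CPM in static and 3.88, 3.23 and 3.58 CPM in FFSS libraries. Its log2 fold change was 1.76 (SE 0.21, edgeR adjusted p = 0.00365), the groups did not overlap, and replicate 1 had the highest value. Its decoy receptor osteoprotegerin, Tnfrsf11b, was at 109, 116 and 107 CPM in static and 97.7, 47.8 and 38.3 CPM in FFSS libraries (log2 fold change −0.85, edgeR adjusted p = 0.149, and −1.37 with 2.7e-14 without replicate 1). Pth1r, the receptor of parathyroid hormone, was at 620.0, 580.99 and 663 CPM and 457, 123 and 169.6 CPM, and Phex, a protease that controls phosphate handling, at 38.6, 24.7 and 41.4 CPM and 37.8, 5.03 and 4.10 CPM. For both, replicates 2 and 3 lay far below the static libraries while replicate 1 was closer to or within their range.

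Sost, sclerostin, varied more within groups than between them. It was at 1.55, 2.24 and 13.0 CPM in static and 11.9, 0.103 and 2.38 CPM in FFSS libraries (log2 fold change −0.23, SE 1.32, edgeR adjusted p = 0.924). Static replicate 3 and FFSS replicate 1 were high and the others low, so the groups overlapped and a difference was not detectable, with or without replicate 1 (edgeR adjusted p = 0.402). Dmp1, a matrix protein of early osteocytes, was at 28.9, 24.2 and 39.4 CPM in static and 102, 16.5 and 16.5 CPM in FFSS libraries, so that replicate 1 was above and replicates 2 and 3 were below all static libraries. Pdpn, podoplanin, which marks the forming dendrites of osteocytes, was at 29.8, 30.7 and 28.9 CPM and 42.1, 53.9 and 42.4 CPM, and passed the adjusted p threshold without reaching 2-fold (log2 fold change 0.63, edgeR adjusted p = 0.0128).

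In the WNT lists, 2 of 19 tested ligands and secreted modulators were called higher (against 1.73% of all genes) and 0 lower with 6 libraries, and 1 was higher and 4 lower without replicate 1 (against 6.80% of all genes higher and 4.20% lower). The same covariate gave a median of 0.11 in place of −0.15, with 3 members called, Rspo2 lower and Wnt7b and Sfrp4 higher. Wnt7b was at 1.33, 1.36 and 1.38 CPM in static and 3.08, 2.72 and 2.54 CPM in FFSS libraries (log2 fold change 1.03, edgeR adjusted p = 0.0166). The secreted antagonist Sfrp4 was at 0.833, 1.42 and 0.938 CPM and 2.54, 2.41 and 2.54 CPM (log2 fold change 1.22, edgeR adjusted p = 0.02). Both were low in level and even across the 3 FFSS libraries, and Wnt7b fell just short of 2-fold without replicate 1. The members lower without replicate 1 were Wif1, Wnt6, Wnt5b and Wnt1, of which Wif1, a WNT inhibitor, was the most abundant at 217, 182 and 216 CPM in static and 191, 50.2 and 62.0 CPM in FFSS libraries. Of 14 feedback and target genes of canonical WNT signalling, Nkd2 was called lower (log2 fold change −1.12, edgeR adjusted p = 0.00949), and Rnf43 and Tcf7 were lower as well without replicate 1 (1 and 3 of 14, against 0.977% and 4.20% of all genes lower). Axin2, a widely used target, had a log2 fold change of −0.29 (edgeR adjusted p = 0.148). With the covariate Nkd2 was not called, and Lef1 was called higher (log2 fold change 1.14, edgeR adjusted p = 0.00051).

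Genes of the actin cytoskeleton controlled by SRF, the factor that responds to actin assembly, differed between the FFSS libraries. None of 21 was called with 6 libraries by edgeR (8 were at an unadjusted p under 0.05, against 34.1% of all genes, DESeq2 called 2 and voom 5), and 5 were called higher and 0 lower without replicate 1 (against 6.80% of all genes higher). All 21 were above the static mean in replicate 2 and 19 in replicate 3, but 6 in replicate 1. Tagln, transgelin, was at 85.8, 86.5 and 81.6 CPM in static and 107, 397 and 325 CPM in FFSS libraries (log2 fold change 1.71, edgeR adjusted p = 0.0643, and 2.09 with 4.87e-18 without replicate 1). Acta2, smooth muscle actin, was at 365, 398 and 351 CPM and 363, 1064 and 1022 CPM, so that replicate 1 was within the static range. The others called without replicate 1 were Zyx, Actg2 and Cnn1, the last of which had at most 7 counts in any library. With the share of reads outside genes as a covariate, the median of the 21 genes was −0.31 in place of 0.37. Tagln overlaps Pcsk7, which had 27.7% as many counts.

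YAP and TAZ are co-activators that enter the nucleus in spread or stretched cells. Of 21 of their targets, 1 was called higher with 6 libraries (4.76%, against 1.73% of all genes), and 5 higher and 1 lower without replicate 1 (against 6.80% of all genes higher and 4.20% lower). Tead1, the DNA-binding partner of YAP, was at 39.9, 36.2 and 34.1 CPM in static and 45.4, 93.9 and 91.0 CPM in FFSS libraries (log2 fold change 1.06, edgeR adjusted p = 0.0493). Ctgf was at 89.4, 89.6 and 81.5 CPM and 75.0, 316 and 245 CPM, and Ankrd1 at 52.0, 51.3 and 47.7 CPM and 34.5, 215 and 154 CPM. For both, replicate 1 was below all static libraries and replicates 2 and 3 were above them, so that the call without replicate 1 (log2 fold changes 1.69 and 1.87, edgeR adjusted p 7e-09 and 1.63e-05) rested on those 2 libraries. Crim1, which overlaps Fez2 with 67.5% as many counts, and Nuak2 were also called higher, and Nt5e lower, without replicate 1. The median of the list was −0.26 with the share of reads outside genes as a covariate, in place of 0.14. In that fit Tead1 was not called, and Cyr61 was called lower (log2 fold change −1.40, edgeR adjusted p = 0.0312). Among 25 integrin and focal adhesion genes, none was called with 6 libraries by edgeR (9 were at an unadjusted p under 0.05, against 34.1% of all genes, and DESeq2 and voom called 1 each) and Ilk alone was called higher without replicate 1 (against 6.80% of all genes). Ilk overlaps Rrp8, which had 3027% as many counts, so that its value is uncertain.

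More matrix genes were called by edgeR without replicate 1 than with it. Of 22 collagens, none was called with 6 libraries by edgeR (8 were at an unadjusted p under 0.05, against 34.1% of all genes, DESeq2 called 0 and voom 7), and 6 were lower and 1 higher without replicate 1 (against 6.80% of all genes higher and 4.20% lower). The same covariate gave a median of −0.03 in place of −0.29, and edgeR then called none (6 were at an unadjusted p under 0.05, against 23.2% of all genes). Col11a2 was at 571, 426 and 571 CPM in static and 461, 87.6 and 114 CPM in FFSS libraries, and Col22a1 at 56.3, 46.2 and 52.9 CPM and 44.9, 7.08 and 4.92 CPM. The other members called lower were Col24a1, Col15a1, Col11a1 and Col5a2, and Col5a3 was higher. Of 25 matrix proteases and inhibitors, Adamtsl1 alone was called by edgeR with 6 libraries (against 0.977% of all genes lower), and without replicate 1 Adamts15 and Adamts12 were also lower while Adamts5, which cleaves aggrecan, and Timp3, a metalloproteinase inhibitor, were higher. These 3 lower and 2 higher members stand against 4.20% and 6.80% of all genes, so that the share higher was near that of all genes. Timp3 was at 264, 251 and 243 CPM in static and 249, 616 and 638 CPM in FFSS libraries, with replicate 1 within the static range.

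More interferon-stimulated genes were called by edgeR without replicate 1 than with it. Of 20 tested, 1 was called higher (against 1.73% of all genes) and 0 lower with 6 libraries, and 8 higher and 0 lower without replicate 1 (against 6.80% of all genes higher). Ifih1, a sensor of viral RNA, was at 7.88, 5.73 and 8.0018 CPM in static and 10.4, 21.8 and 17.2 CPM in FFSS libraries (log2 fold change 1.19, edgeR adjusted p = 0.0303). Ifit1, an antiviral RNA-binding protein, was at 8.49, 6.44 and 5.41 CPM and 7.07, 20.019 and 19.3 CPM, and Rsad2, viperin, at 2.00, 2.29 and 1.66 CPM and 2.37, 8.37 and 6.17 CPM. Their groups overlapped only through replicate 1 or not at all: in Ifit1 it was within the static range, and in Rsad2 just above it. Ddx58, Oasl2, Oas1a, Mx1 and Mx2 were the other members called without replicate 1. With the share of reads outside genes as a covariate, edgeR called none (2 were at an unadjusted p under 0.05, against 23.2% of all genes) and the median of the list was −0.02, in place of 0.63.

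Class IIa histone deacetylases hold MEF2 factors in check, and SIK kinases keep them out of the nucleus. Of 10 genes of this group, Hdac9 was called lower with 6 libraries and Mef2c joined it without replicate 1 (1 and 2 of 10, against 0.977% and 4.20% of all genes lower). Hdac9 was at 7.11, 7.15 and 5.79 CPM in static and 2.05, 1.23 and 1.04 CPM in FFSS libraries (log2 fold change −2.21, SE 0.25, edgeR adjusted p = 0.00308). Hdac5 was at 137, 148 and 134 CPM and 94.7, 74.8 and 86.3 CPM, a log2 fold change of −0.71 that passed the adjusted p threshold in edgeR (0.0052) but not the 2-fold limit. Hdac4 went the other way, at 30.5, 24.990 and 26.7 CPM and 32.2, 39.8 and 44.6 CPM (log2 fold change 0.50, edgeR adjusted p = 0.0424).

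Of 29 axon guidance genes, Sema7a was called higher and Robo1, a receptor of Slit proteins, lower (log2 fold change −2.46, edgeR adjusted p = 0.0258), against 1.73% and 0.977% of all genes. Without replicate 1, Sema5a, Slit3, Sema3d, Robo2, Sema4d and Sema3b were lower as well (7 of 29, against 4.20% of all genes). With the covariate 1 member was called, Sema7a higher (against 0.990% of all genes), and Robo1 was not. Among 17 Notch genes, none was called with 6 libraries by edgeR (6 were at an unadjusted p under 0.05, against 34.1% of all genes, DESeq2 called 1 and voom 3), and the ligand Jag2, the target Hey1 and the receptor Notch3 were lower without replicate 1 (3 of 17, against 4.20% of all genes). Jag2 was at 58.3, 53.1 and 60.5 CPM in static and 33.6, 11.2 and 12.7 CPM in FFSS libraries. Of 22 TGF-β and BMP genes, Gdf15, a stress-induced cytokine, was called lower (log2 fold change −1.15, edgeR adjusted p = 0.0107), against 0.977% of all genes, and without replicate 1 Bmp2, Bmp8a and Gdf5 were lower as well, so that 4 members were lower and 1 higher (against 6.80% of all genes higher and 4.20% lower).

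Prostaglandins are early mediators released by loaded osteocytes. Ptgs2, the inducible cyclooxygenase, was at 112, 86.7 and 102 CPM in static and 63.6, 96.1 and 70.8 CPM in FFSS libraries (log2 fold change −0.38, edgeR adjusted p = 0.144) and was not called in either fit. Of 13 prostaglandin genes tested, Ptges, a prostaglandin E synthase, was called lower (log2 fold change −1.26, edgeR adjusted p = 0.0429), and without replicate 1 Ptgis and Ptgs1 were lower too and the transporter Slco2a1 was higher. These are 1 of 13 lower with 6 libraries (against 0.977% of all genes), and 3 lower and 1 higher without replicate 1 (against 4.20% and 6.80%). With the share of reads outside genes as a covariate, Ptges was not called and Ptger4 was called lower (log2 fold change −1.14). Pla2g4a, the phospholipase that releases arachidonic acid, was at 153, 147 and 144 CPM and 94.1, 80.7 and 74.6 CPM, with an edgeR adjusted p of 0.00308 but a log2 fold change of −0.83, short of 2-fold.

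Few genes were called in the remaining lists. Of 22 cytosolic heat shock genes, Hspa1b was called lower (log2 fold change −2.30, edgeR adjusted p = 0.00205). It is a near-identical copy of Hspa1a, so that reads may be lost or split between them. The small heat shock protein gene Cryab was lower too without replicate 1 (1 and 2 of 22, against 0.977% and 4.20% of all genes). Among 20 endoplasmic reticulum chaperone, 24 respiratory chain and 22 replication and mitosis genes, none was called by edgeR with or without replicate 1, nor by DESeq2 or voom, while 9, 8 and 9 were at an unadjusted p under 0.05 in edgeR with 6 libraries (against 34.1% of all genes). Of 19 mechanosensitive channel, connexin and purine receptor genes, only Panx3, a pannexin of bone and cartilage cells, was called by edgeR, and lower in the fit without replicate 1 (1 of 19, against 4.20% of all genes), at 885, 781 and 895 CPM in static and 761, 179 and 213 CPM in FFSS libraries. Piezo1, the stretch-activated channel (listed as Fam38a, and overlapping Ctu2 with 15.2% as many counts), was at 332, 322 and 326 CPM and 315, 433 and 478 CPM (log2 fold change 0.32, edgeR adjusted p = 0.145). One gene each was called lower without replicate 1, and none with 6 libraries, in the lists of ATF4 targets (Vldlr), cholesterol and fatty acid synthesis (Scd2) and NRF2 antioxidant genes (Me1), near the 4.20% of all genes called lower in that fit. With 6 libraries 13, 4 and 10 genes of these lists and 6 of the channel list were at an unadjusted p under 0.05 in edgeR (against 34.1% of all genes), DESeq2 called 0 in each and voom 1 in each. The cholesterol list was above the static mean in 20 of 22 genes in replicate 1 and in 8 and 7 in replicates 2 and 3. The median change of all genes tested was 0.005, 0.018 and 0.013 in these libraries, and the difference between them was not tested. With the share of reads outside genes as a covariate, the median of the chaperone list was 0.13 in place of −0.13, of the respiratory chain list 0.08 in place of −0.09, of the replication and mitosis list 0.01 in place of −0.10 and of the NRF2 list 0.16 in place of −0.15.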

How the data were processed

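Total RNA of cultured Ocy454 cells was collected, and mRNA isolated from it was sequenced by the authors, who aligned reads with STAR to mm9 and counted them per Ensembl gene with HTSeq, per the study's methods and the submitters' processing notes; the HTSeq version is not consistent in the sources used here. The deposited values are raw counts, not stranded, of 37583 gene IDs per library, neither normalised nor filtered. Symbols, positions (1-based) and lengths came from an NCBIM37 (mm9) annotation, which gave symbols for 37168 of these IDs (98.9%). Summary lines for reads outside genes stayed out of library sizes.

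Of 22382 genes with any count in the 6 libraries, those with 0 counts in 2 or more libraries were removed, and 16166 were tested with edgeR 4.0.16 (R 4.3.3, TMM factors, robust quasi-likelihood fit, no covariate, 3 libraries against 3). Calls required a Benjamini-Hochberg adjusted p under 0.05 over all genes tested together with a change beyond 2-fold, as in the study's methods. CPM used TMM-scaled totals, log2 CPM a prior count of 2, and RPKM exon lengths. Genes removed included 2 whose mean reached 10 counts in a condition. A floor of 3 counts reflects counting error alone, because PCR copies cannot be recognised without molecular identifiers.

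The genes named are the 10 highest and 10 lowest log2 fold changes among genes called with an average log2 CPM above 1 and no overlap between groups, and members of 30 gene lists (635 symbols, of which 634 matched and 603 had enough counts to be tested). Members and lists were chosen with earlier results of these data known, so the count of a list called is not independent evidence of its direction. Alternatives were RLE factors, library totals, other filters on low counts, all 12 libraries, DESeq2 1.42.0, limma 3.58.1 voom with sample weights, the replicate number as a block, the share of reads outside genes as a covariate, other thresholds, and each library left out. Some members are counted in their lists but not reported here by name. The procedure was tested on simulated data. Promoters were read from a RefSeq table of GRCm38.p6, whose coordinates are not those of mm9.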

Additional observations from a re-analysis of the deposited data

Results flagged for a closer look

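The share of reads outside annotated genes, a measurement that the comparison of genes does not use, was above the highest static share (4.34%) in each of the 3 FFSS libraries. It was 4.90% in FFSS replicate 1, 7.75% in replicate 2 and 8.53% in replicate 3. Its order across these libraries matched the number of genes past 2-fold higher, which was 311, 1147 and 1345, but not the number past 2-fold lower, which was 258, 828 and 716. Its part in the gene results was not tested, because the covariate fit cannot tell it apart from FFSS.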

How the results depend on the processing

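The 438 genes called became 439 with RLE factors, 563 with library totals alone, 435 with another filter on low counts, 445 with none, and 560 with DESeq2. The count moved by more than 1.5 times with all 12 libraries (884), limma voom with sample weights (1614), the share of reads outside genes as a covariate (160, of which 83 were among the 438), no fold limit (2373) and an adjusted p under 0.01 (96). Leaving out 1 library gave between 73 and 1815 genes: 73, 100 and 82 without static replicates 1, 2 and 3, and 1815, 135 and 120 without FFSS replicates 1, 2 and 3. Fewer libraries leave fewer degrees of freedom, and FFSS replicate 1 carried most of the spread, with a biological coefficient of variation of 0.191 in the 3 FFSS libraries and 0.0712 in replicates 2 and 3, against 0.0328 in static libraries. A replicate block by the numbers of the titles gave 413 genes called. Same-numbered libraries did not deviate together (correlations of −0.0076, 0.055 and −0.041 for numbers 1, 2 and 3), so the numbers were not taken as pairs. The difference in the share of reads outside genes ran from 2.03 to 3.85 percentage points with 1 library left out.

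Of the 55 named genes called, none changed sign under any alternative run, 55 kept the call with RLE factors and DESeq2, 44 with no filter on low counts, 49 with the replicate block, 30 with the covariate, between 21 and 27 without 1 static library, and 54, 33 and 31 without FFSS replicates 1, 2 and 3. In the fit with the share of reads outside genes as a covariate, the FFSS term rests mainly on replicate 1. Among named genes that were not called, 44 changed sign in it, and the cause was not tested. Their log2 fold changes in that fit were Acta2 −0.26, Actg2 −0.37, Aldoc 0.33, Alpl 0.030, Ankrd1 −0.79, Bglap 0.80, Bglap2 0.50, Bmp8a 0.31, Col11a2 0.12, Col15a1 0.10, Col1a1 0.027, Col1a2 0.10, Col22a1 0.35, Col24a1 0.14, Crim1 −0.36, Ctgf −0.43, Dkk1 0.48, Dusp5 −0.053, Epas1 0.49, Fos −0.11, Ibsp 0.45, Ifit1 −0.12, Ilk −0.20, Mx2 −0.66, Nuak2 −0.046, Oas1a −0.056, Panx3 0.11, Phex 0.69, Piezo1 −0.15, Ptgis 0.12, Ptgs1 0.82, Rspo2 −1.12, Sema4d 0.058, Smpd3 0.020, Sost 1.59, Sparc 0.22, Spred3 −1.03, Timp3 −0.23, Tnfrsf11b 0.046, Wif1 0.15, Wnt1 0.53, Wnt5b 0.11, Wnt6 0.035 and Zyx −0.30. Dmp1 was at 2.17 with the covariate, where it was called higher (edgeR adjusted p = 0.0302), at −0.73 with voom and −0.000644 with the replicate block, and between −0.91 (without FFSS replicate 1) and 0.94 (without FFSS replicate 3) with 1 library left out. Mepe was at 0.17 with voom and between −0.85 (without static replicate 2) and 0.32 (without static replicate 3). Rspo2 was at −0.013 with the replicate block and between −0.14 (without FFSS replicate 2) and 0.40 (without FFSS replicate 1). Sost ran from −2.18 without FFSS replicate 1 to 1.33 without static replicate 3.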

Other observations

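Calls among lincRNA, snoRNA and processed transcript genes were mostly higher. Of 668 lincRNA genes tested, 38 were called higher and 0 lower by edgeR (5.69%, against 2.71% of all genes), and 155 higher (23.2%) and 10 lower (1.497%) without FFSS replicate 1, where 6.80% of all genes were higher and 4.20% lower. Of 92 small nucleolar RNA (snoRNA) genes, which guide chemical modification of ribosomal RNA and mostly lie within introns of other genes, 10 were called higher and 0 lower (10.9%), and 45 higher (48.9%) and 0 lower without replicate 1. Their median changes were 0.18, 1.14 and 1.23 in FFSS replicates 1 to 3. Small nucleolar RNA genes took 0.0030, 0.0030 and 0.0029% of gene counts in static libraries 1 to 3 and 0.0035, 0.0092 and 0.0102% in FFSS libraries 1 to 3, so that their levels were low throughout. The share of reads outside annotated genes was highest in the same libraries, and its part in these counts was not tested. Of 476 processed transcripts, 20 were called higher and 3 lower (4.83%), and 99 higher (20.8%) and 15 lower (3.15%) without replicate 1. Pseudogenes were more even, with 8 of 915 called higher and 2 lower (1.09%), and 36 higher (3.93%) and 29 lower (3.17%) without replicate 1. Among 13909 protein-coding genes, 201 were called higher and 152 lower (2.54%).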
